A study of Mus musculus with 6 samples.

Results

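The transcripts of 48 genes of mitosis and the kinetochore were followed in RNA-seq libraries of mouse colon epithelial cells (IECs) after dextran sodium sulphate (DSS), a detergent-like polymer that injures the colonic epithelium and causes colitis. The genes were taken by symbol from a list written with earlier results of these data known, and all 48 were among the 55487 genes listed and among the 14650 that passed the filter on low counts. The controls were 3 Nsd2 f/f libraries, whose floxed Nsd2 alleles are intact, and the other 3 were Nsd2 Vil-KO, where Villin-Cre deletes the gene in intestinal epithelial cells. Nsd2 encodes a histone methyltransferase that places the H3K36me2 mark. The sample labels call the controls WT, and that they were Nsd2 f/f mice, with floxed alleles, is taken from the study's text. Per the study, both groups were on a C57BL/6J background with littermates as controls. Both received DSS, so no library from a mouse without DSS was part of this comparison. The methods give the mice an age of 2 months at the start of DSS. The labels do not say whether each library came from its own mouse. The p-values below therefore weigh each difference against the spread between these libraries, which may not be a spread between mice.

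Mitosis separates the copied chromosomes into a pair of daughter cells. Cyclin B and Cdk1 start it, condensins compact the chromosomes, and the kinetochore, a protein assembly built on centromeric chromatin, holds each chromosome to the microtubules of the spindle. The spindle checkpoint delays the separation of sister chromatids until every kinetochore is attached, after which the central spindle and the cytokinesis machinery divide the cell. In the colon this takes place in the lower crypt, where stem cells and transit-amplifying cells renew the epithelium, while the differentiated cells above no longer divide. The RNA of most of these genes is made late in the cell cycle, so their level in a tissue follows both the number of dividing cells and the RNA in each, and in bulk RNA these cannot be told apart.

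The libraries held between 15439123 and 20350539 counted reads, and levels are given as CPM, counts scaled to a common library size after TMM normalisation. The counts of the 48 genes in a library lay between 21, for Cenpn, Ndc80 and Kif18a in Nsd2 f/f replicate 3, and 8063, for Mki67 in Nsd2 Vil-KO replicate 3. Nsd2 f/f replicate 3 and Nsd2 Vil-KO replicate 2 stood apart from the other libraries in values not limited to the 48 genes. They alone held Xist transcripts in number (4296 and 3684 counts, against 1 to 5 in the others). They also had the lowest quality weights in limma-voom (0.295 and 0.154, against 1.78 to 2.75), from a fit of all genes tested that includes the 48. Mitochondrial genes took 19.6% of the counts of Nsd2 f/f replicate 3 and 5.51% to 9.13% of the others. Nsd2 itself was at 47.9, 51.2 and 24.6 CPM in the f/f libraries (replicates 1 to 3) and at 24.2, 10.4 and 20.8 CPM in the Vil-KO libraries. The groups did not overlap, but in Nsd2 f/f replicate 3 the level was just above that of Nsd2 Vil-KO replicate 1 (log2 fold change −1.16, SE 0.39, adjusted p = 0.992 by edgeR's quasi-likelihood test). Xist is transcribed in female cells, but the labels give no sex, and the part of sex in these differences between libraries was not tested. The genotype labels were used as given, and whether any was exchanged, which would change what each comparison below means, was not tested.

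Promoters of mitotic genes are known to carry the cell cycle homology region (CHR), which the MuvB complexes bind, and CCAAT boxes, which NF-Y binds. RefSeq promoter sequences were matched for 41 of the 48 genes, all but Smc4, Ccna2, Spc24, Aurkb, Incenp, Tpx2 and Kif20a, and the 250 bases before each start were searched on both strands for the CHR, which is written TTTGAA or, in its other form, TTTAAA, and for the CCAAT box. A CHR in either spelling was found in 21 of the 41 genes (51.2%), against 28.1% of all 27025 genes with a promoter sequence. For TTTGAA alone the count was 16 (39.0%, against 18.3% of all genes), and for TTTAAA it was 6 (14.6%, against 13.7%). A CCAAT box was found in 31 (75.6%, against 37.5%) and both kinds together in 18 (43.9%, against 10.1%). A match of letters is a description of the window and not a bound site. The 150 bases before the RefSeq start are printed for Mki67, Top2a and Plk1, the members with the highest mean CPM among those with a CHR and a CCAAT box, as examples of how the motifs are laid out (GRCm38.p6, RefSeq, 5′ to 3′ along the gene's strand, with motifs of either strand in capitals). They lie at chr7:135716380-135716529 on the minus strand, chr11:99024190-99024339 on the minus strand and chr7:122159285-122159434 on the plus strand. No annotated exon lies in the Mki67 and Top2a windows, and 117 bases of the Plk1 window lie in an exon of Gm15489 on the opposite strand.
Mki67: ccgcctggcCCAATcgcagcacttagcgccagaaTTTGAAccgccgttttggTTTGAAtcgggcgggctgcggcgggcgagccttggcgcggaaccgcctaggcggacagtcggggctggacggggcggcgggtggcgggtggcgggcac
Top2a: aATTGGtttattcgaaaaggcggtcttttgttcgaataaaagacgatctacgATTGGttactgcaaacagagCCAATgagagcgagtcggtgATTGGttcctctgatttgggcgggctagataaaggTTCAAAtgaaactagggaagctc
Plk1: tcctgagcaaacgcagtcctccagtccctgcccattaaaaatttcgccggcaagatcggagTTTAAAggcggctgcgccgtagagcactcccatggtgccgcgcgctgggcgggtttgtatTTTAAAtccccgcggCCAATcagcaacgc
Mki67 held TTTGAA at 116 and 98 bases before the start and 1 CCAAT box farther out, Top2a held 4 CCAAT boxes and a CHR on the opposite strand at 23 bases, and Plk1 held TTTAAA at 89 and 29 bases with a CCAAT box at 14. None of these motifs overlapped another.

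None of the 48 genes differed between the genotypes by the test, while nearly all leaned the same way. The criterion, taken from the study's results, asked for an unadjusted p below 0.05 and a change of more than 1.2-fold. The criterion was passed by 0 of the 48 genes as higher in Nsd2 Vil-KO mice, where 1.65% of all genes tested passed it, and by 0 as lower, where the share was again 1.65%. No member had an adjusted p below 0.05 by edgeR (0 members, as for the 0% of all genes), and 0 had an unadjusted p below 0.05. DESeq2 also called 0 of them, and by DESeq2 4 of the 14650 genes tested had an adjusted p below 0.05. The log2 fold change was above 0 in 46 of the 48 genes, against 50.1% of all genes tested, and its median was 0.39, against 0.00 over all genes. This lean rested on Nsd2 f/f replicate 3, without which 23 genes were above 0 and 25 below, with a median of −0.0064. With all 6 libraries the values ran from −0.02 for Bub3 to 0.75 for Bub1b, with standard errors between 0.17 and 0.80. The unadjusted p-values ran from 0.202 to 0.983 and the adjusted p-values from 0.992 to 0.999 (edgeR). The CPM of the groups did not overlap in 1 gene that was higher in Nsd2 Vil-KO mice, Kif4, where 5.21% of all genes did so, and in 0 that were lower, where 4.7% did.

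The spread between libraries of one genotype was larger than the difference between the genotypes. The summed level of the 48 genes was 2077, 2024 and 609 CPM in the f/f libraries (replicates 1 to 3), averaging 1570 ± 833 (SD, n = 3). It was 2144, 1248 and 2797 CPM in the Vil-KO libraries, averaging 2063 ± 778 (SD, n = 3). Nsd2 f/f replicate 3 held 29.7% of the mean of its group's other libraries, and Nsd2 Vil-KO replicate 2 held 50.5% of that of Nsd2 Vil-KO replicates 1 and 3. Against the mean of Nsd2 f/f replicates 1 and 2, Nsd2 Vil-KO replicate 1 stood at 104.5% and replicate 3 at 136.4%. Gene by gene, the lowest library was Nsd2 f/f replicate 3 in 48 of 48, against 25.5% of all genes tested. The highest was Nsd2 Vil-KO replicate 3 in 46, against 14.8% of all genes. In 43 genes (89.6%) the library next to the bottom was Nsd2 Vil-KO replicate 2, a pair that was lowest in 20.9% of all genes.

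**Figure D1:**
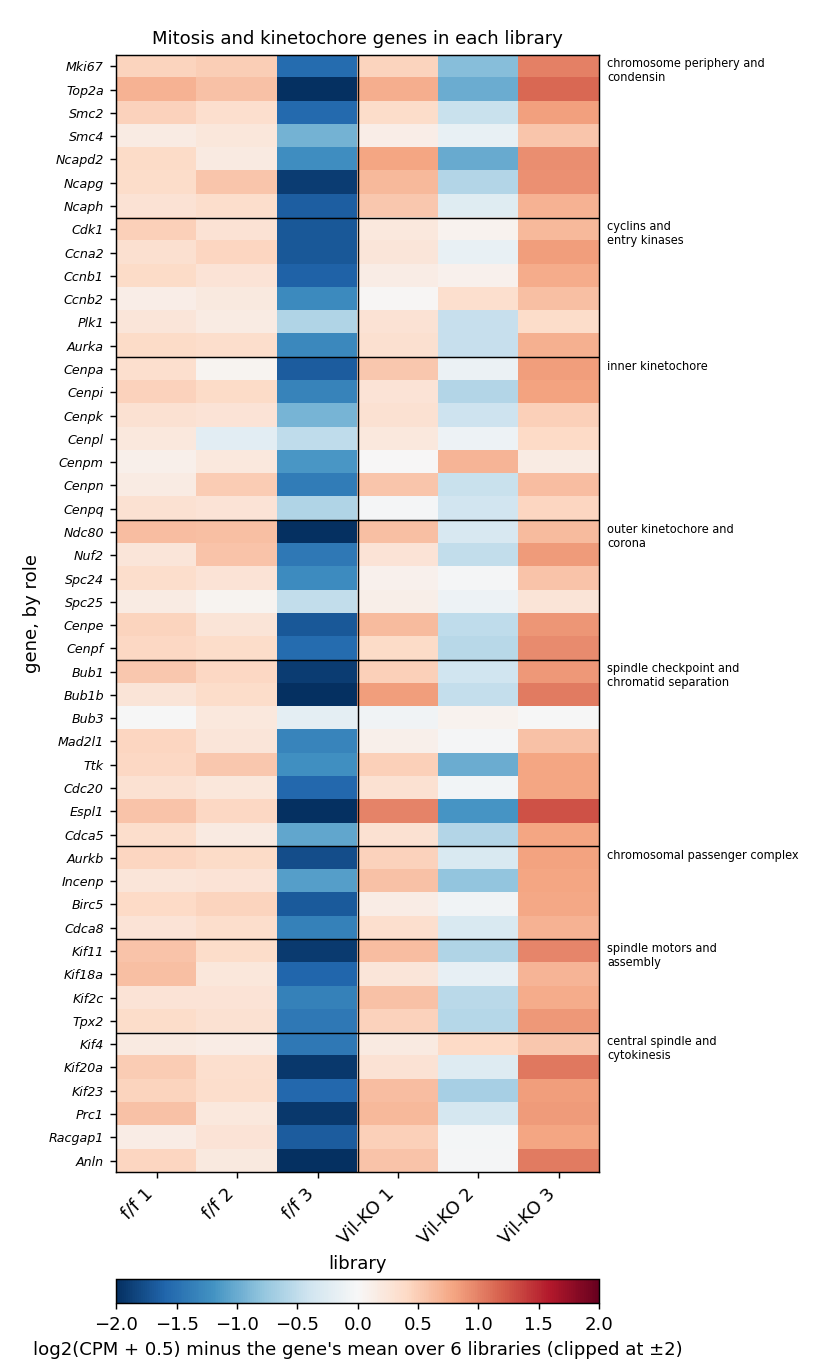
Level of each of the 48 genes in each of the 6 libraries, as log2(CPM + 0.5) minus the gene's mean over the libraries, with genes grouped by role; the colour scale is clipped at ±2. Nsd2 f/f replicate 3 is the bluest column and the lowest library in all 48 rows, while Bub3 is nearly even across the row.

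The markers of dividing cells, Mki67, Top2a and Cdk1, were detected in every library and lowest in Nsd2 f/f replicate 3. Mki67 (ENSMUSG00000031004, chromosome 7, 135689784 to 135716361, GRCm38), which encodes Ki-67, the coat protein of mitotic chromosomes, was at 279, 288 and 70.3 CPM in Nsd2 f/f replicates 1 to 3 and at 280.2, 114 and 412 CPM in Nsd2 Vil-KO replicates 1 to 3. Its log2 fold change was 0.34 (SE 0.62, edgeR). Top2a (ENSMUSG00000020914, chromosome 11, 98992943 to 99024189), the topoisomerase that untangles sister chromatids, was at 177, 164 and 24.2 CPM and at 181, 54.7 and 243 CPM (log2 fold change 0.39, SE 0.77). In both genes the groups overlapped, since Nsd2 Vil-KO replicate 2 lay below Nsd2 f/f replicates 1 and 2, and Nsd2 f/f replicate 3 lay below every other library. The other genes that shape mitotic chromosomes are condensin subunits, namely Smc2 and Smc4, which form the core, and Ncapd2, Ncapg and Ncaph, which complete condensin I. Ncapd2 (ENSMUSG00000038252) was at 65.7, 56.9 and 20.9 CPM in Nsd2 f/f libraries and at 87.4, 24.7 and 96.1 CPM in Nsd2 Vil-KO libraries (log2 fold change 0.53, SE 0.58, edgeR). Nsd2 Vil-KO replicates 1 and 3 were both above Nsd2 f/f replicates 1 and 2, whereas replicate 2 was close to Nsd2 f/f replicate 3. Over the 7 genes of this role the median log2 fold change was 0.39, and their sum was at 25.01% in Nsd2 f/f replicate 3 and at 35.9% in Nsd2 Vil-KO replicate 2, each of its own group's other libraries.

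Among the cyclins and kinases of mitotic entry, the sum in Nsd2 Vil-KO replicate 2 was less far from its group than that of all 48 genes (68.0% against 50.5%). This was not particular to the role, since the inner kinetochore genes stood at 62.6% and the checkpoint and chromatid separation genes at 61.6%. By gene, the share in this role ran from 49.3% for Aurka to 99.4% for Ccnb2. Cdk1 (ENSMUSG00000019942, chromosome 10, 69335146 to 69352938), the kinase that drives entry, was at 50.7, 44.3 and 10.9 CPM in Nsd2 f/f libraries and at 42.3, 38.2 and 57.0 CPM in Nsd2 Vil-KO libraries (log2 fold change 0.37, SE 0.51). Ccnb2 (ENSMUSG00000032218), which encodes cyclin B2, was at 47.6, 49.3 and 17.5 CPM and at 43.7, 54.4 and 65.7 CPM (log2 fold change 0.51, SE 0.39, edgeR). For Ccnb2, Nsd2 Vil-KO replicate 2 was as high as its group (99.4% of the mean of replicates 1 and 3). Plk1 (ENSMUSG00000030867), the polo kinase of spindle assembly and mitotic exit, was at 106, 101 and 59.1 CPM and at 110.1, 65.0 and 117 CPM (log2 fold change 0.13, SE 0.31). It was the gene in which the 2 libraries that stood apart were most alike, with a level 1.10-fold higher in Nsd2 Vil-KO replicate 2 than in Nsd2 f/f replicate 3. Ccna2, Ccnb1 and Aurka, the cyclins A2 and B1 and the centrosomal Aurora kinase, had log2 fold changes of 0.41, 0.44 and 0.28. The 6 genes had a median of 0.39 and stood, as a sum, at 35.7% in Nsd2 f/f replicate 3 and at 68.0% in Nsd2 Vil-KO replicate 2.

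**Figure D2:**
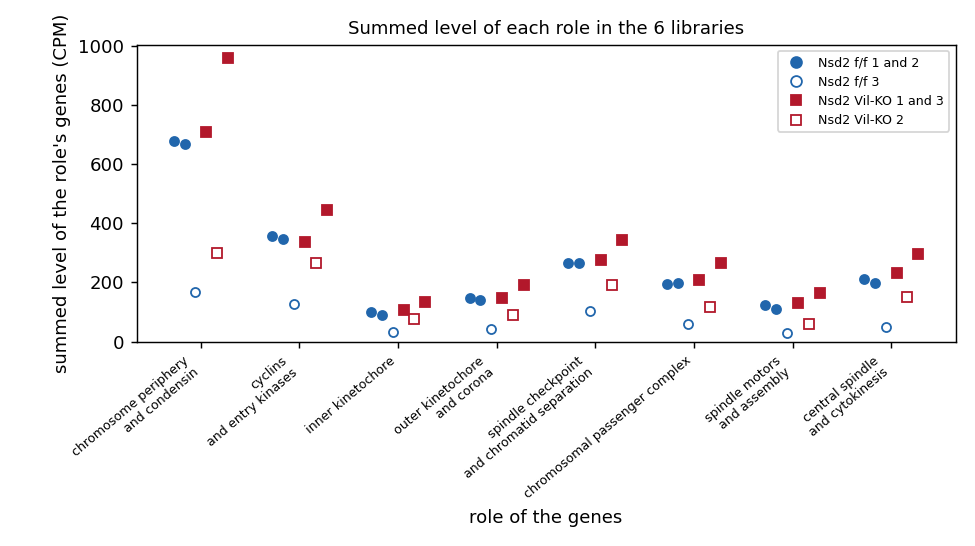
Summed CPM of the genes of each role in each library, with circles for Nsd2 f/f and squares for Nsd2 Vil-KO and open symbols for the libraries that stood apart (Nsd2 f/f replicate 3 and Nsd2 Vil-KO replicate 2). In each role the open circle is lowest and the open square next, and the highest square is Nsd2 Vil-KO replicate 3.

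The inner kinetochore genes encode the centromeric histone CENP-A and members of the network that sits on it. Cenpa (ENSMUSG00000029177, chromosome 5, 30666777 to 30674830) was at 52.4, 43.2 and 12.8 CPM in Nsd2 f/f libraries and at 60.6, 38.4 and 74.8 CPM in Nsd2 Vil-KO libraries. Its log2 fold change of 0.68 (SE 0.50, edgeR) was the third largest of the 48, and the groups overlapped. The network genes Cenpi, Cenpk, Cenpl, Cenpm, Cenpn and Cenpq had log2 fold changes from −0.01 for Cenpq to 0.49 for Cenpm. Cenpm went against the common pattern, since Nsd2 Vil-KO replicate 2 was its highest library, at 11.1 CPM against 6.78 and 7.66 CPM in replicates 1 and 3. In the outer kinetochore, Ndc80, Nuf2, Spc24 and Spc25 encode the complex that grips microtubules, Cenpe a motor of the corona and Cenpf its partner there. Cenpe (ENSMUSG00000045328) was at 40.1, 35.2 and 8.73 CPM and at 45.7, 20.5 and 54.9 CPM (log2 fold change 0.52, SE 0.58). The subunits of the Ndc80 complex did not stand at one share in Nsd2 f/f replicate 3: Ndc80 itself stood at 11.9% of replicates 1 and 2, the lowest share of the 48 genes, and Spc25 at 64.3%. The medians were 0.34 for the 7 inner and 0.29 for the 6 outer genes.

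The checkpoint held both the most even gene and the gene with the largest fold change. Bub3 (ENSMUSG00000066979, chromosome 7, 131560222 to 131571895), a checkpoint protein that also has partners outside mitosis, was at 63.3, 73.4 and 55.6 CPM in Nsd2 f/f libraries and at 60.1, 66.7 and 63.0 CPM in Nsd2 Vil-KO libraries. Its log2 fold change of −0.02 had the smallest standard error of the 48 genes, 0.17. Bub1b (ENSMUSG00000040084, chromosome 2, 118598211 to 118641591), which encodes the checkpoint kinase-like protein BubR1, was at 29.0, 31.1 and 5.49 CPM and at 43.5, 17.3 and 50.01 CPM. Its log2 fold change was 0.75 (SE 0.64, edgeR), and its groups overlapped through Nsd2 Vil-KO replicate 2. Espl1, which encodes separase, the protease that cuts cohesin, had the widest error (log2 fold change 0.67, SE 0.80). It was at 22.6, 20.4 and 3.23 CPM in the f/f libraries and at 30.6, 6.38 and 37.2 CPM in the Vil-KO libraries, so that Nsd2 Vil-KO replicate 2 held 18.8% of the others, the lowest such share of the 48. Bub1, Mad2l1 and Ttk of the checkpoint, Cdc20, the activator of the anaphase-promoting complex, and Cdca5, which encodes the cohesin protector sororin, had log2 fold changes from 0.17 for Ttk to 0.52 for Cdc20. The 8 genes had a median of 0.36.

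The chromosomal passenger complex corrects faulty attachments and later marks the division plane. Incenp (ENSMUSG00000024660), its scaffold, was at 68.1, 70.0 and 26.7 CPM in Nsd2 f/f libraries and at 86.6, 33.2 and 99.9 CPM in Nsd2 Vil-KO libraries (log2 fold change 0.41, SE 0.49, edgeR). Aurkb, Birc5 and Cdca8, which encode the kinase, survivin and borealin of the complex, had log2 fold changes of 0.42, 0.34 and 0.36. Of the spindle genes, Tpx2 (ENSMUSG00000027469), a nucleator of spindle microtubules, was at 47.8, 45.6 and 13.3 CPM and at 50.7, 24.6 and 67.5 CPM (log2 fold change 0.42, SE 0.53). Kif2c (ENSMUSG00000028678), a kinesin that takes microtubules apart at kinetochores, was at 18.3, 18.4 and 5.57 CPM and at 23.0, 10.3 and 25.6 CPM (log2 fold change 0.47, SE 0.52). In Incenp, Tpx2 and Kif2c, Nsd2 Vil-KO replicates 1 and 3 lay above Nsd2 f/f replicates 1 and 2 and the libraries that stood apart lay below them, but in Birc5 and Cdca8 Nsd2 Vil-KO replicate 1 did not lie above both. Kif11, the motor that pushes the poles apart, and Kif18a, which limits the length of kinetochore microtubules, had log2 fold changes of 0.46 and 0.28.

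The genes of the central spindle and cytokinesis had the largest median of the 8 roles, 0.55 over 6 genes. Racgap1 (ENSMUSG00000023015), the GTPase-activating part of centralspindlin, was at 51.4, 56.0 and 14.3 CPM in Nsd2 f/f libraries and at 64.5, 44.99 and 80.5 CPM in Nsd2 Vil-KO libraries (log2 fold change 0.64, SE 0.49, edgeR). Kif4 (ENSMUSG00000034311, chromosome X, 100625737 to 100727214), a chromosome-borne kinesin that sets the size of the central spindle, was at 28.7, 28.2 and 9.05 CPM and at 28.8, 33.4 and 36.9 CPM (log2 fold change 0.58, SE 0.41, edgeR). It had the smallest p of the 48 genes and was the one whose groups did not overlap, although replicate 1 of both genotypes was nearly level. With library size in place of TMM the groups overlapped in Kif4 too, so that the count was 0, against 5.24% of all genes. Anln, which encodes the contractile ring protein anillin, was at 28.0, 23.6 and 4.04 CPM and at 30.8, 20.3 and 43.0 CPM (log2 fold change 0.75, SE 0.63). For Kif20a, Kif23 and Prc1, the motors and the microtubule bundler of the midzone, it was 0.49, 0.40 and 0.51. In this role Nsd2 f/f replicate 3 held 23.4% and Nsd2 Vil-KO replicate 2 held 56.9% of their own group's other libraries.

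**Figure D3:**
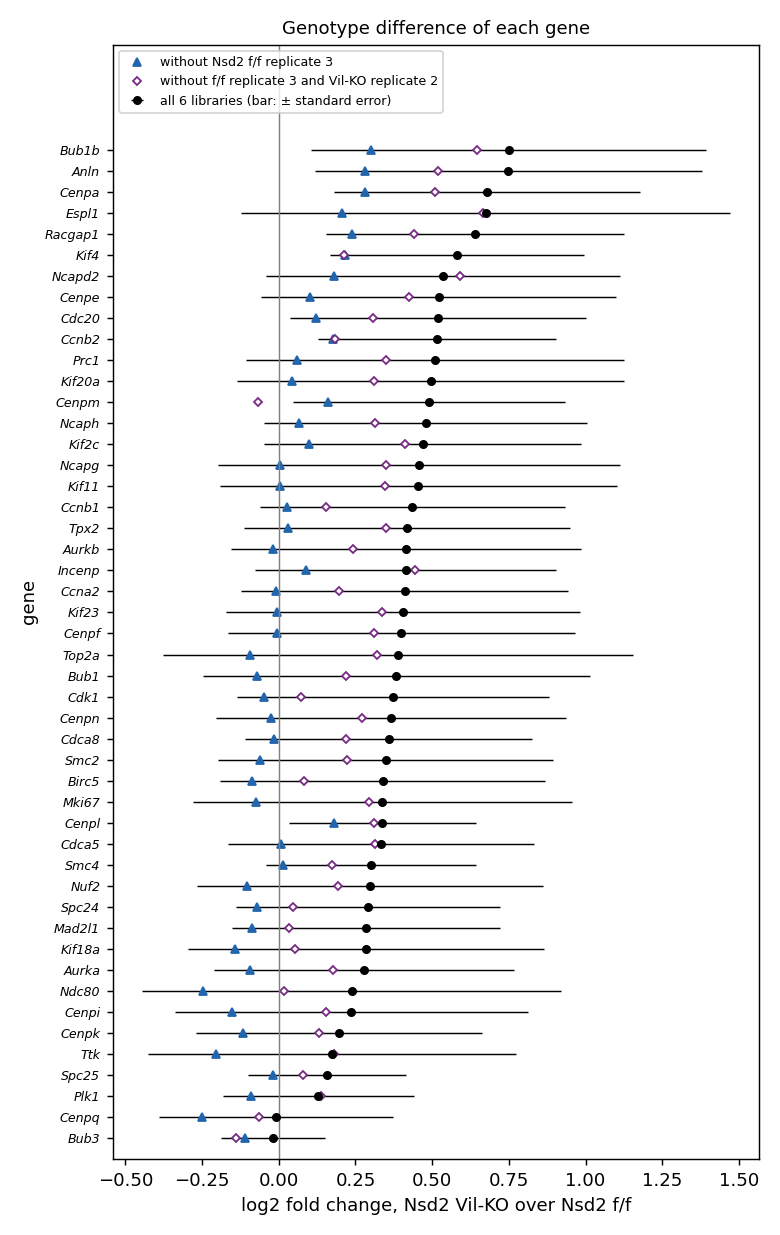
Log2 fold change of each gene, Nsd2 Vil-KO over Nsd2 f/f, with all 6 libraries (circles, bars ± SE), without Nsd2 f/f replicate 3 (triangles) and without both libraries that stood apart (diamonds). The circles lie right of 0 in 46 of 48 genes, the triangles in 23 and the diamonds in 45. No gene passed the criterion with all 6 libraries, where 1.65% of all genes tested did in each direction. None did without Nsd2 f/f replicate 3, where that share is not given.

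Per length, the genes covered a wide range of levels. On the scale of CPM per kilobase of exon, averaged over the 6 libraries, Plk1 (42.3), Ccnb2 (30.3), Cdc20 (29.3) and Mki67 (23.9) were highest and Kif18a (0.70), Cenpk (0.97) and Cenpi (1.35) lowest, with a median of 5.06. Exons of 13 of the 48 genes share bases with another gene, most on the opposite strand, and since use of strand in the counting is not given in the sources used here, such reads may be counted for either gene. The share was largest in Kif20a (29.3% of its exon length, with Cdc23) and Kif4 (15.1%, with Pdzd11).

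The share that a gene held in each of the libraries that stood apart differed among the 48. In Nsd2 f/f replicate 3 the level was between 11.9% (Ndc80) and 81.3% (Bub3) of the mean of replicates 1 and 2, with a median of 25.7%, and 5 genes held more than 50% of it. In Nsd2 Vil-KO replicate 2 the level was between 18.8% (Espl1) and 154% (Cenpm) of the mean of replicates 1 and 3, with a median of 50.9%, and 25 genes held more than 50%. Top2a (25.8%), Ncapd2 (26.9%), Ttk (30.2%) and Mki67 (32.9%) held small shares there, whereas Ccnb2 (99.4%), Kif4 (102%) and Bub3 (108%) were level with the group. These 2 libraries are the pair with Xist transcripts, and between them all 48 genes were higher in Nsd2 Vil-KO replicate 2, against 50.6% of all genes tested, by 1.10-fold (Plk1) to 5.03-fold (Anln) with a median of 2.31-fold. Among the other 4 libraries, Nsd2 Vil-KO replicate 3 was above both Nsd2 f/f replicates 1 and 2 in 46 genes (36.7% of all genes), by a median of 1.34-fold over their mean. Nsd2 Vil-KO replicate 1 was above that mean in 26 genes (47.0% of all genes), by a median of 1.01-fold over the 48.

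The weight of each library was read by leaving it out. Without Nsd2 f/f replicate 3 the median log2 fold change of the 48 genes was −0.0064, with 23 genes above 0 and 25 below. Without Nsd2 Vil-KO replicate 3 it was 0.11 with 36 above 0, and without Nsd2 Vil-KO replicate 1 it was 0.35. Without Nsd2 f/f replicate 1 or 2, or without Nsd2 Vil-KO replicate 2, it was 0.68, 0.64 and 0.63. Without Nsd2 f/f replicate 3 alone, the 48 genes thus had no common direction. In each of these 6 settings 0 genes passed the criterion, against 0 with all libraries, where 1.65% of all genes tested passed it in each direction. The share over all genes in the 6 settings is not given, so these counts are not read as a result about the 48 genes. Fewer libraries overlap less often, so each count without overlap is given beside its share over all genes. Without Nsd2 Vil-KO replicate 2 the groups did not overlap in 22 of the 48 genes (45.8%) as higher in Nsd2 Vil-KO mice, where 14.6% of all genes did so. Without Nsd2 f/f replicate 1, 2 or 3 the counts were 2, 1 and 1 (9.39%, 7.94% and 9.55% of all genes), and without Nsd2 Vil-KO replicate 1 or 3 they were 2 and 1 (9.68% and 8.67%).

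**Figure D4:**
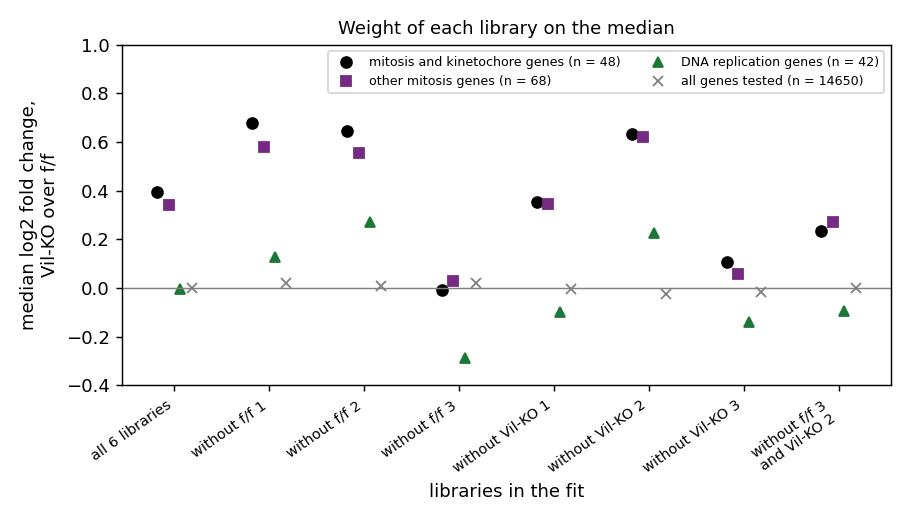
Median log2 fold change, Nsd2 Vil-KO over Nsd2 f/f, of the 48 mitosis and kinetochore genes, the 68 other mitosis genes, the 42 DNA replication genes and all genes tested, with each library left out in turn and with both libraries that stood apart left out. The median of the 48 genes moves from 0.39 to −0.0064 without Nsd2 f/f replicate 3, and that of all genes stays near 0.

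With both libraries that stood apart left out, 4 libraries remained, and this was the setting in which single genes passed the criterion, as in the fit with Xist as a covariate. The median was 0.23, and 10 of the 48 genes (20.8%) passed the criterion as higher in Nsd2 Vil-KO mice, where 5.6% of all genes did. They were Bub1b, Espl1, Ncapd2, Incenp, Cenpa, Racgap1, Cenpe, Kif2c, Anln and Kif23, and 0 passed it as lower. The log2 fold change was 0.65 for Bub1b (SE 0.13), 0.66 for Espl1 (SE 0.15) and 0.59 for Ncapd2 (SE 0.12), while the smallest adjusted p of the 48 genes was 0.321 (edgeR). Cdk1 and Bub3 were at 0.07 and −0.14 there. In these 4 libraries 45 of the 48 genes were above 0. The groups did not overlap in 22 of the 48 (45.8%) as higher, where 21.4% of all genes did so, and in 1 of the 48 as lower, where 22.6% did. With the presence of Xist transcripts as a covariate in all 6 libraries, the median was 0.54 and 16 genes (33.3%) passed the criterion as higher, where 3.73% of all genes did. These were the same 10 genes and Tpx2, Kif11, Top2a, Ncaph, Ncapg and Prc1, and the smallest adjusted p was 0.627. The fit with 4 libraries has 2 a group, and both settings were chosen with the values known.

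The other genes of the pathway were described in the same way. In a list of 68 other mitosis genes the median log2 fold change was 0.34, with 60 above 0 (88.2%, against 50.1% of all genes tested). The sums were 1694, 1710 and 815 CPM in the f/f libraries and 1776, 1247 and 2206 CPM in Nsd2 Vil-KO libraries. Without Nsd2 f/f replicate 3 this median was 0.03. The criterion was passed by 0 of them as higher and by 1 as lower, where 1.65% of all genes tested passed it in each direction. The gene that passed as lower was Itgb3bp, which encodes CENP-R of the inner kinetochore network. Itgb3bp was at 5.95, 6.85 and 8.24 CPM in Nsd2 f/f libraries and at 3.12, 4.38 and 2.91 CPM in Nsd2 Vil-KO libraries (log2 fold change −1.01, SE 0.33, adjusted p = 0.992, edgeR), and it was highest in the library in which the 48 genes were lowest. The 15 genes of the anaphase-promoting complex, the ubiquitin ligase that ends mitosis, were level across libraries, with sums between 717 and 764 CPM and a median of 0.01. Of these, 0 passed the criterion as higher and 1 as lower, where 1.65% of all genes tested passed it in each direction. The gene that passed was Anapc13, a small subunit, at 20.7, 28.3 and 47.9 CPM and at 14.7, 16.8 and 17.4 CPM (log2 fold change −0.98, SE 0.32, edgeR). Its log2 fold change was −0.58 without Nsd2 f/f replicate 3.

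Among 29 regulators of mitotic genes the median was 0.07 and 0 passed the criterion, where 1.65% of all genes tested passed it in each direction. The groups did not overlap in 1 as higher and 0 as lower, where 5.21% and 4.7% of all genes did so. Foxm1, the forkhead factor of late cell cycle genes, was at 27.9, 31.7 and 4.04 CPM in Nsd2 f/f libraries and at 30.6, 13.6 and 44.1 CPM in Nsd2 Vil-KO libraries (log2 fold change 0.47, SE 0.71). Mybl2, which encodes the B-Myb partner of MuvB, was at 17.3, 14.2 and 4.2 CPM and at 18.7, 12.9 and 19.6 CPM (log2 fold change 0.51, SE 0.48). Both had the order of libraries of the 48 genes, with Nsd2 f/f replicate 3 lowest and Nsd2 Vil-KO replicate 3 highest. E2f1, an activator of entry into S phase, was at 12.5, 11.7 and 3.15 CPM and at 11.3, 4.11 and 13.03 CPM (log2 fold change 0.04, SE 0.60), and E2f4, a repressor in resting cells, was at 76.6, 89.1 and 79.5 CPM and at 77.9, 53.4 and 80.0 CPM (log2 fold change −0.21, SE 0.20).

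DNA replication genes, which act in S phase of the same dividing cells, shared the low libraries but not the lean between genotypes. Over the 42 genes the median log2 fold change was −0.01, with 20 above 0 (47.6%, against 50.1% of all genes tested). The criterion was passed by 0 of them, where 1.65% of all genes tested passed it in each direction. The groups did not overlap in 0 as higher and 2 as lower, where 5.21% and 4.7% of all genes did so. Their sums were 1443, 1605 and 688 CPM in Nsd2 f/f libraries and 1418, 924 and 1513 CPM in Nsd2 Vil-KO libraries, so that Nsd2 f/f replicate 3 held 45.2% of replicates 1 and 2. The ratio of the mitosis sum to the replication sum was 1.44, 1.26 and 0.885 in Nsd2 f/f replicates 1 to 3 and 1.51, 1.35 and 1.85 in Nsd2 Vil-KO replicates 1 to 3. This ratio was lowest in Nsd2 f/f replicate 3 and highest in Nsd2 Vil-KO replicate 3, and the groups overlapped. Pcna, the clamp of the replication fork, was at 115, 140.04 and 66.2 CPM and at 108, 93.7 and 112 CPM (log2 fold change −0.03, SE 0.28).

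**Figure D5:**
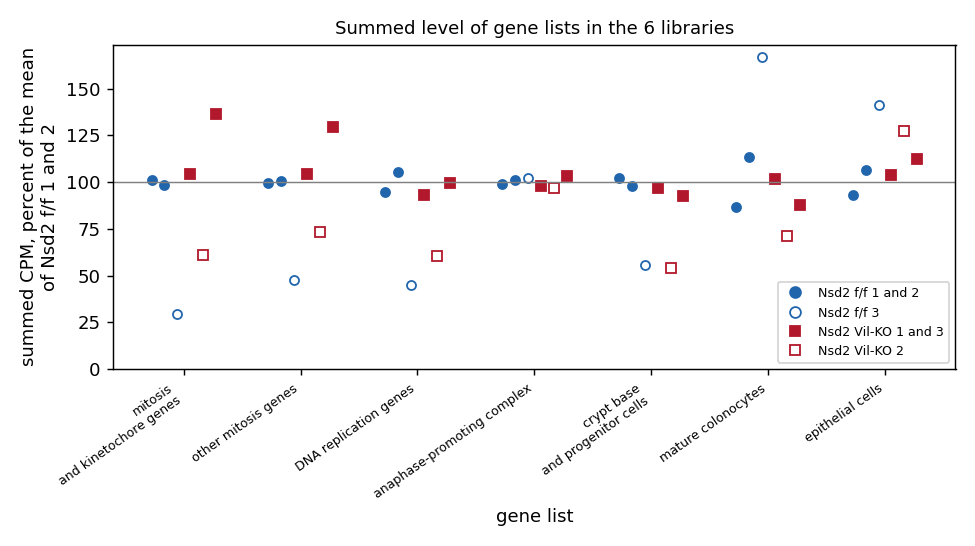
Summed CPM of gene lists in each library, as a percentage of the mean of Nsd2 f/f replicates 1 and 2 (line at 100). Open symbols mark the libraries that stood apart. The mitosis and kinetochore genes are lowest in Nsd2 f/f replicate 3, at 29.7%, where the mature colonocyte markers are highest. All genes tested, which are not drawn, sum to 135% in that library.

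Markers of other cells differed between the libraries, some with the libraries that stood apart and the goblet cell sum with the genotype. Their part in the level of the 48 genes was not tested. The 10 epithelial markers summed to between 12516 and 18924 CPM, so the labelled cell type was present throughout. Their sum was highest in Nsd2 f/f replicate 3, at 141% of the mean of replicates 1 and 2, where all genes tested summed to 135%. The 12 markers of crypt base and progenitor cells, the compartment that divides, summed to 963, 923 and 523 CPM in Nsd2 f/f libraries and to 914, 508 and 875 CPM in Nsd2 Vil-KO libraries. The 10 markers of mature colonocytes, which do not divide, summed to 6697, 8744 and 12864 CPM and to 7867, 5483 and 6790 CPM. Nsd2 f/f replicate 3 had low progenitor and high colonocyte sums (55.5% and 167% of the mean of replicates 1 and 2, against 135% for all genes tested). Nsd2 Vil-KO replicate 2 had the lowest sum of both. The 7 goblet cell markers summed to 14627, 13126 and 15394 CPM in the f/f libraries and to 10524, 8892 and 10372 CPM in the Vil-KO libraries. These sums did not overlap between genotypes, but gene by gene the groups did not overlap in 1 of the 7 as lower, where 4.7% of all genes did so. All 7 log2 fold changes were below 0 with a median of −0.57, where 50.1% of all genes tested were above 0. The criterion was passed by 1 gene as lower, where 1.65% of all genes passed it, and 0 had an adjusted p below 0.05 (edgeR). Without the libraries that stood apart the median was −0.61. Neutrophil markers summed to 2353 CPM in Nsd2 Vil-KO replicate 2 and to between 198 and 884 CPM elsewhere. Of the 6 neutrophil markers tested, 3 were highest in Nsd2 Vil-KO replicate 2 and 3 in Nsd2 f/f replicate 1. The 7 macrophage markers summed to 10.02 CPM in Nsd2 f/f replicate 3 and to 17.7 to 218 CPM elsewhere, and the 9 fibroblast and muscle markers to 6.87 CPM there and to 8.10 to 269 CPM elsewhere, and both sums were highest in Nsd2 f/f replicate 1.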

How the data were processed

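Messenger RNA of colon epithelial cells from DSS-treated mice was sequenced in paired ends, 3 libraries per genotype, grouped by the sample labels. Per the methods, reads were trimmed with Cutadapt and Trimmomatic and aligned to GRCm38 with HISAT2, which the submitters' processing notes also name. The deposited values are raw counts, whole numbers of reads assigned to each Ensembl gene, with no normalisation by the authors. How reads were assigned to genes, and whether by strand, is not given in the sources used here, and the kit in the labels differs from that in the methods. The authors' FPKM and Ballgown comparison were not used here.

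Genotypes were compared in R 4.3.3 with edgeR 4.0.16 (TMM, filterByExpr, quasi-likelihood test with robust estimation, no covariates, Benjamini-Hochberg adjustment over 14650 genes), tested first on simulated counts. The biological coefficient of variation was 41.2%. Library totals of 15439123 to 20350539 put the floor of 3 counts at 0.146 to 0.242 CPM. No pair of libraries of the same genotype was a duplicate by a chi-square test of counts, and pairs across genotypes were not tested. The members, gene lists, criterion and alternatives were chosen with earlier results of these data known. Values per library were given for Nsd2, Mki67, Top2a, Cdk1, in each role the member with the highest mean CPM and that with the smallest p, members past the criterion or without overlap, lower or higher, and Foxm1, Mybl2, E2f1, E2f4 and Pcna. Of the other mitosis genes and the anaphase-promoting complex, genes past the criterion were named, whereas those of the cell marker lists were not. Espl1, Anln, Ndc80 and Cenpm were singled out after their values were seen.

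Gene coordinates and exon lengths came from GENCODE vM21 on GRCm38 (99.5% of listed genes found), and promoters from RefSeq on GRCm38.p6. A gene with several starts counted as holding a motif if any start did. Alternatives were DESeq2-type size factors, library size only, no filter or at least 10 counts in each library, DESeq2 1.42.0, limma 3.58.1 voom with quality weights, robust estimation off, a replicate block, mitochondrial genes left out, Xist as a covariate, each library or both outlying libraries left out, and a fold change limit of 2. Lists were described by counts and medians, with no set test. Figures were drawn with matplotlib 3.10.9.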

Additional observations from a re-analysis of the deposited data

How the results depend on the processing

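The count of the 48 genes past the criterion as higher was 0 in the main fit, where 1.65% of all genes passed it. It moved to 10 with both libraries that stood apart left out (5.6% of all genes) and to 16 with Xist as a covariate (3.73%). In the other settings and with a fold change limit of 2 it was 0, and the share over all genes there is not given. The count without overlap moved from 1 to 0 (higher) with library size only. With both libraries left out it was 22 of the 48 (45.8%) as higher and 1 of the 48 as lower, where 21.4% and 22.6% of all genes did not overlap. With each library left out it lay between 1 and 22 (higher). It was 22 (45.8%) without Nsd2 Vil-KO replicate 2 (14.6% of all genes). Without Nsd2 f/f replicate 1 or Nsd2 Vil-KO replicate 1 it was 2 (9.39% and 9.68%). The median of the 48 genes lay between −0.0064 and 0.68 with each library left out, that of the other mitosis genes between 0.027 and 0.62, and that of the replication genes between −0.29 and 0.27. In the remaining settings the first of these medians was 0.30 with limma-voom, 0.54 with Xist as a covariate, 0.23 without both libraries and 0.39 to 0.40 in the others except the replicate block.

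The sign turned, with a library left out, for Mki67 (−0.11 to 0.71), Top2a (−0.095 to 0.80), Cdk1 (−0.049 to 0.73), Plk1 (−0.091 to 0.35), Bub3 (−0.11 to 0.093), Foxm1 (−0.012 to 0.88), E2f1 (−0.35 to 0.40) and Pcna (−0.28 to 0.21). It also turned for Bub3 with library size only (0.012) and for Pcna with Xist as a covariate (0.022). Nsd2 lost the criterion with library size only (−1.12) and without Nsd2 f/f replicate 1 (−1.04) or 2 (−0.97), Itgb3bp without Nsd2 f/f replicate 2 (−1.02) and Nsd2 Vil-KO replicate 1 (−0.94) or 3 (−0.90), and Anapc13 without Nsd2 Vil-KO replicate 1 (−0.91). The cause was not tested in any of these.

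The deviations of same-numbered libraries from their group means correlated at 0.32, −0.35 and −0.11, and those of Nsd2 f/f replicate 3 and Nsd2 Vil-KO replicate 2 at 0.30. With 3 libraries per genotype, these values cannot decide whether the replicate numbers pair the libraries. With the replicate block the median was 0.49, 0 genes passed the criterion, Pcna turned to 0.026 and Itgb3bp (−1.02) lost the criterion. The depth put all 48 genes above the floor, at 21 counts or more, and counting error was not separated from the spread between libraries.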

Other observations

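Transcript length moved with the libraries as well. Over the 48 genes, the Spearman correlation of exon length with a library's log2 deviation from the gene's mean was 0.49, 0.16 and −0.39 in Nsd2 f/f replicates 1 to 3 and 0.43, −0.29 and 0.47 in Nsd2 Vil-KO replicates 1 to 3. Over 14642 genes tested it was 0.03, 0.05 and −0.15 and 0.20, −0.16 and 0.23. These are descriptions across genes, which are not independent and share each library's depth and preparation. In both libraries that stood apart, the longer of the 48 genes tended to be the lower ones.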
